A study of Mus musculus with 27 samples.

Results

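The p53 gene and 9 of its best known transcriptional targets were followed in mouse B cells activated for 3 h with or without disulfiram (DSF). The 10 genes were Trp53, Mdm2, Cdkn1a, Ccng1, Sesn2, Trp53inp1, Zmat3, Gdf15, Phlda3 and Eda2r, taken by symbol from a table of 54532 genes. Each symbol matched 1 row of the table, and all 10 are protein-coding genes. RNA was sequenced from splenic B cells of wild-type (WT) C57BL6 mice, isolated with a Pan B negative selection kit. In experiment 1, 5 groups of 4 libraries were made from cells left unstimulated, given LPS, or given IL-4 together with an antibody to CD40 (IL4CD40), the activated cells each without inhibitor or with 1 μM DSF. Cells without inhibitor carried the DMSO vehicle. Experiment 2 held 1 library of each of the same 5 groups and 1 library per stimulus with 1 μM ibrutinib, so it allows no test. DSF is a drug used against alcohol dependence, and ibrutinib inhibits the B cell kinase BTK. LPS acts on B cells through Toll-like receptor signalling, whereas IL-4 plus anti-CD40 stands in for help from T cells. The study calls the 4 libraries of a group biologically independent, but the labels do not tie them to animals, so the p-values measure the spread between these libraries.

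The protein p53 is a transcription factor that is made continuously and degraded continuously. Mdm2 ubiquitinates it and is itself a p53 target, which closes a negative feedback loop. Damage to DNA, loss of nucleotides or disturbed ribosome assembly can free p53 from Mdm2, in the last case through ribosomal proteins such as Rpl5 and Rpl11 that bind Mdm2. Stabilised p53 then raises transcription of genes that arrest the cell cycle (Cdkn1a, encoding p21), limit mTOR signalling (Sesn2) or promote cell death (Bax, Pmaip1). The question asked of these data was whether the target genes moved with DSF, as a readout of nucleolar or nucleotide stress. Several of the targets also answer to other regulators, among them ATF4 for Sesn2 and Gdf15.

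Binding sites for p53 are built from 2 copies of a 10-base half-site. The p53 half-site consensus was searched in RefSeq promoter windows of GRCm38.p6, from 250 bases before to 50 after each start. Windows were given for 8 of the 10 genes, and Trp53inp1 and Zmat3 had none in the table. Cdkn1a and Gdf15 had 2 windows each, which made 10 windows. A half-site stood in 1 window each of 4 genes, Trp53, Cdkn1a, Mdm2 and Ccng1, against 8.36% of all 32851 windows. For Cdkn1a this was the window of the upstream start, and the other, at chr17:29093519-29093818, held 0 half-sites. The pattern reads the same on both strands, so each match counts for both. Cdkn1a alone of the 8 held 2 half-sites within a spacer of at most 13 bases, as did 0.0731% of all windows. A search chosen after this one allowed 2 adjoining half-sites with 1 base off the consensus. It matched Cdkn1a, at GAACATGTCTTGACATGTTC, and Ccng1, at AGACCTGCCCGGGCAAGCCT, and 0.0883% of all windows. The 250 bases before the start are shown for the genes with the strongest match among those that rose with DSF (Cdkn1a), for the p53 inhibitor (Mdm2) and for a gene that fell (Ccng1), with exact half-sites in capitals. They lie at chr17:29090729-29090978 on the plus strand for Cdkn1a, at chr10:117710759-117711008 on the minus strand for Mdm2 and at chr11:40755287-40755536 on the minus strand for Ccng1.
Cdkn1a: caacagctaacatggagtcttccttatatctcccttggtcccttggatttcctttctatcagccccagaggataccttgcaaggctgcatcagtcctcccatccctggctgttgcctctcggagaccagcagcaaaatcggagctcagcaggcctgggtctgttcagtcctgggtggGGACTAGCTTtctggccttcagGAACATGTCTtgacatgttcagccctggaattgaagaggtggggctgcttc
Mdm2: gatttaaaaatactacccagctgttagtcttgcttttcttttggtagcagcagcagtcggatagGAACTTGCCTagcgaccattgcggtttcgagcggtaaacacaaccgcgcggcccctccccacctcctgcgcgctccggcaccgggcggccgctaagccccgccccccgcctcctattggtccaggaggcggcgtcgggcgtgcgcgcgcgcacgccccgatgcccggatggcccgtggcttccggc
Ccng1: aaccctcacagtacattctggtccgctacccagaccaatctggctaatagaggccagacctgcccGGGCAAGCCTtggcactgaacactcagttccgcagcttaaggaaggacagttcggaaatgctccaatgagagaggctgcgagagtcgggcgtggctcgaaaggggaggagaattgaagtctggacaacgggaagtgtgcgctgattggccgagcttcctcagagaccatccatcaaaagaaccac
The first bases of the half-sites lie 73 and 51 bases before the upstream Cdkn1a start, 186 before the Mdm2 start and 185 before the Ccng1 start. A match describes these letters and is not a measurement of binding. Sites further upstream or deeper within the genes, introns included, were not searched. A window without a match therefore does not show that a gene lacks a p53 site, and a match need not be its main one.

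Total counts were between 17804851 and 23632992 per library in experiment 1 and between 16049295 and 24619776 in experiment 2. Levels below are TMM-normalized CPM, counts scaled to the size of the library, unless FPKM, the deposited value per gene length, is named. All 8 B cell markers were detected in every group. The 4 unstimulated libraries of experiment 1 did not form one cluster. Their deviations from the group mean correlated within the pairs 1 and 2 (r = 0.658) and 3 and 4 (r = 0.597, over 15575 genes) and opposed each other across the pairs (r from -0.82 to -0.81), and 14.5% of 11465 genes spanned at least 2-fold, against 0.593% in LPS. Deviations from a group mean cancel out, so the values across the pairs are tied to those within them. Between LPS libraries all such correlations lay from -0.38 to -0.24. The B cell markers summed to 5741 and 5795 CPM in unstimulated replicates 2 and 1 and to 9958 and 10166 CPM in replicates 4 and 3. In unstimulated replicates 1 to 4 the neutrophil markers summed to 37.9, 36.5, 13.8 and 18.0 CPM. The erythroid markers summed to 3.23, 1.93, 19.2 and 19.4 CPM. The part of these cells in the difference between the pairs was not tested. IL4CD40 replicates 1 and 2 likewise lay apart from 3 and 4, with 3.92% of genes spanning 2-fold. Values against one pair alone are therefore given for the members that differed most between pairs. The pairs were chosen after seeing the data, and a p-value against 1 pair leaves out the spread between the pairs.

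**Figure D1:**
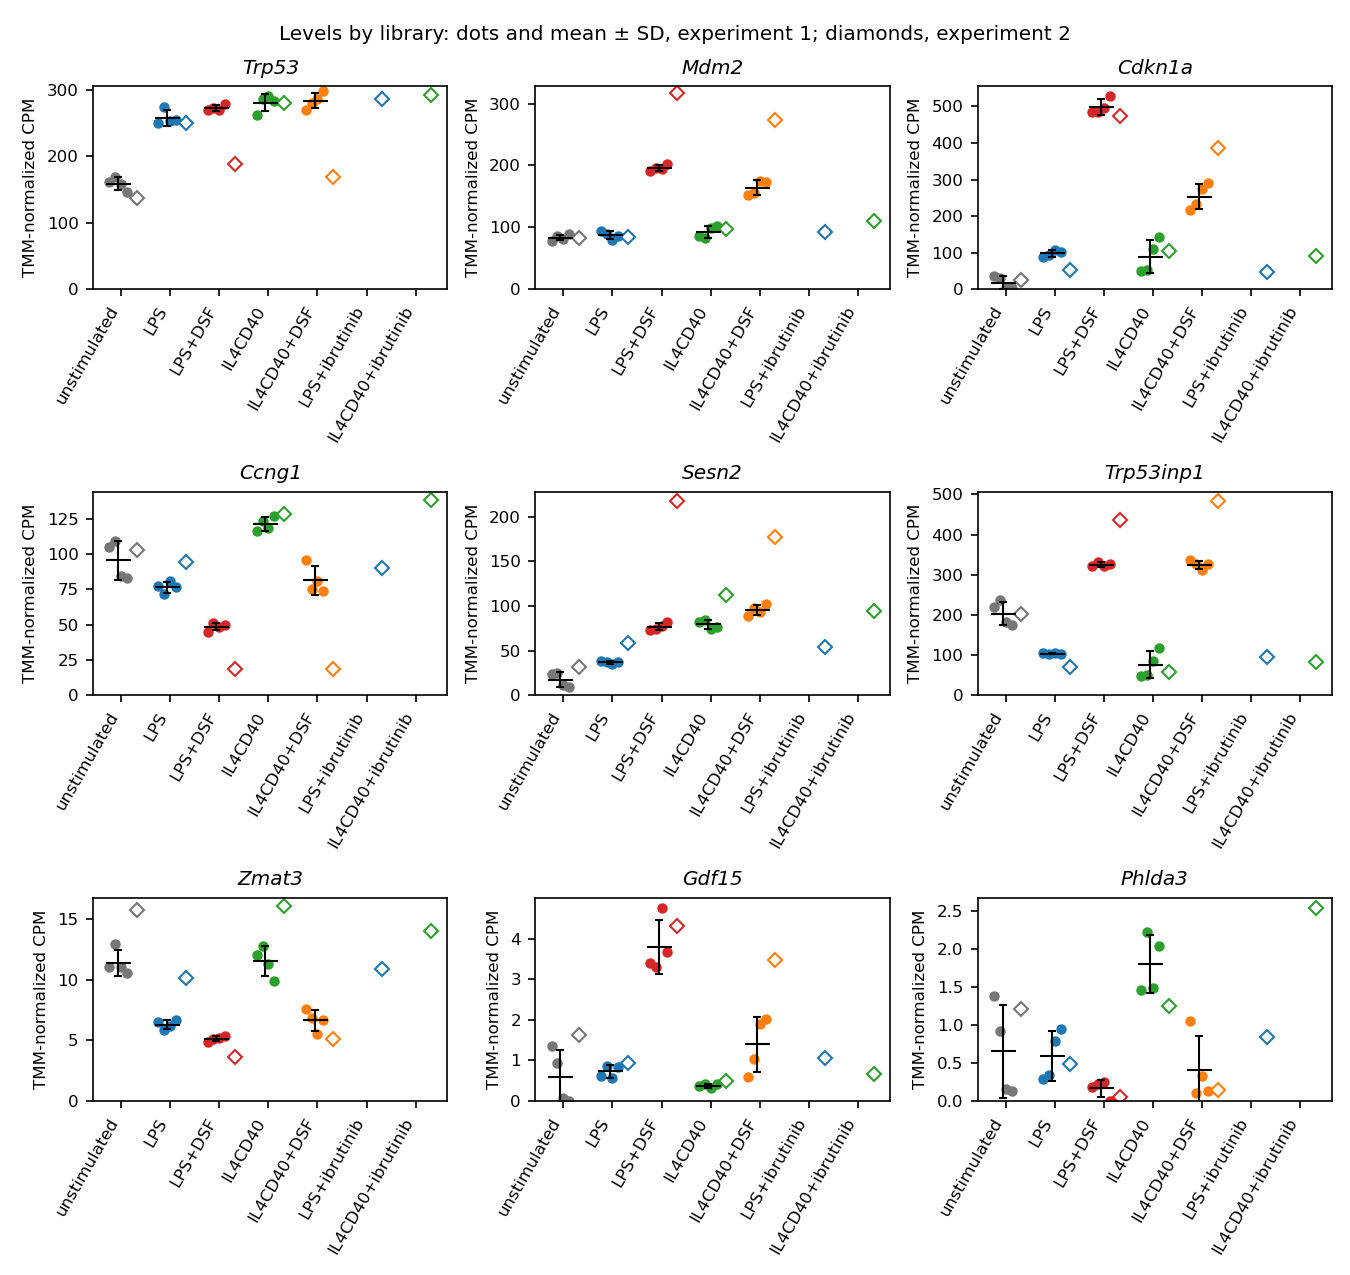
TMM-normalized CPM (vertical axes, linear from 0) of 9 genes in each library, by group. Dots are the 4 libraries of experiment 1 in replicate order with the mean and SD as bars, which are cut at 0, and open diamonds are the single libraries of experiment 2. Cdkn1a reached 484 to 529 CPM in LPS+DSF and stayed at or under 142 CPM in every group without DSF.

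Trp53 itself, at chr11:69580359-69591873, rose on activation but hardly moved with DSF in experiment 1. Its level was 161, 169, 158 and 146 CPM in unstimulated replicates 1 to 4, 249, 275, 252 and 254 CPM with LPS, and 262, 286, 289.9 and 283 CPM with IL4CD40. Every stimulated library lay above every unstimulated one. In edgeR the log2 fold change was 0.70 (SE 0.06, adjusted p = 2.63e-05) with LPS and 0.88 (SE 0.07, adjusted p = 1.33e-05) with IL4CD40. With DSF the LPS libraries read 269.6, 273, 269 and 279 CPM and overlapped those without it. That difference, 0.10 on the log2 scale (SE 0.04), passed the threshold in edgeR at an adjusted p of 0.0326 but turned to -0.11 (adjusted p = 0.0153) when libraries were scaled to total counts. It also lost the call (adjusted p from 0.0533 to 0.263) without LPS replicate 1, 3 or 4 or without any 1 LPS+DSF library. DESeq2 (adjusted p = 0.0686), its size factors in edgeR (0.0687) and edgeR on all genes with any count (0.5) did not call it either. In IL4CD40 cells the DSF change was log2 -0.04 (SE 0.05, edgeR adjusted p = 0.455). In experiment 2 Trp53 was lower with DSF, at 188 against 249.5 CPM in LPS and at 169 against 279 CPM in IL4CD40.

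Of the 10 genes, 6 were raised and 2 lowered by DSF in LPS-stimulated cells (edgeR, adjusted p under 0.05), beside 35.1% and 36% of the 14154 genes tested. In IL4CD40-stimulated cells 5 were raised and 3 lowered, beside 30.1% and 31.6% of 14275 genes. Gdf15 and Phlda3 drop out in IL4CD40 when every sample must hold at least 10 counts. Of the 7 members then tested, 4 were raised and 2 lowered, over all genes 4084 and 4118. Most genes tested were called in one direction or the other, so the sizes are given for each gene. Scaled to total counts, which puts the median gene at log2 -0.21 in LPS and -0.16 in IL4CD40, the calls over all genes moved from 4966 raised and 5096 lowered to 3473 and 6680 in LPS, and from 4301 and 4514 to 3262 and 5832 in IL4CD40. The members then gave 5 raised and 3 lowered in LPS and 4 raised and 4 lowered in IL4CD40. The median log2 fold change of the tested members was 1.13 in LPS, against 0.00 over all genes, and 0.21 in IL4CD40, against -0.02. Cdkn1a, Mdm2, Trp53inp1, Sesn2 and Gdf15 were raised in both stimuli, and Ccng1 and Zmat3 were lowered in both. The libraries did not overlap for those 5 raised genes in either stimulus, nor for Ccng1 and Zmat3. All libraries with DSF were higher for 30.3% and lower for 33.8% of the tested genes in LPS, and for 30.6% and 26.5% in IL4CD40. The B cell markers, summed, were also lower with DSF, at 3559.5 to 3754 CPM against 5086 to 5221 CPM in LPS and at 4545 to 4705 CPM against 6707 to 8357 CPM in IL4CD40. The 5 plasma cell markers summed to more with DSF, at 2160 to 2334 CPM against 1821 to 1849 CPM in LPS. In IL4CD40 they summed to 1601 to 1654 CPM against 1379.5 to 1460 CPM. In experiment 2 their sum was lower in LPS (1387 against 1539 CPM). By single gene, DSF raised 4 and lowered 1 in LPS and raised 2 and lowered 0 in IL4CD40. In experiment 2 in LPS, 2 were at least 2-fold higher and 0 lower (median log2 ratio 0.91), beside 20.3% and 19.5% of genes. In experiment 2 the 6 neutrophil markers summed to 3.72 against 0.769 CPM in LPS and 4.39 against 0.436 CPM in IL4CD40, and the 5 erythroid markers to 67.8 against 26.2 CPM and 57.3 against 24.1 CPM. In experiment 1 the neutrophil markers summed to at most 13.8 CPM and the erythroid markers to at most 2.83 CPM in the stimulated groups. The part of these cells in the members' values was not tested. In bulk RNA fewer cells of a type and less RNA per cell cannot be told apart.

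Cdkn1a, at chr17:29090976-29100727, encodes the cyclin-dependent kinase inhibitor p21, which halts the cell cycle, and rose with DSF in both stimuli. It read 88.0, 93.6, 108 and 101 CPM in LPS and 484, 485, 496 and 529 CPM in LPS+DSF, with no overlap. The change was 5.18-fold (log2 2.37, SE 0.05, edgeR adjusted p = 2.05e-22), and only 309 of the 14154 tested genes had a larger log2 fold change. In IL4CD40 it read 50.2, 51.0, 109.6 and 142 CPM, and with DSF 218, 232, 273 and 290.1 CPM. All DSF libraries again lay above all others, although IL4CD40 replicates 1 and 2 held less than 3 and 4. The change was 2.77-fold (log2 1.47, SE 0.29, edgeR adjusted p = 9.43e-04), with log2 2.25 against replicates 1 and 2 alone and 0.97 against 3 and 4 alone. Experiment 2 gave 475 against 52.7 CPM in LPS and 386 against 103 CPM in IL4CD40. The gene overlaps a gene on the opposite strand, AC167363.2. The strand setting of the counting is not given in the sources used here, so how reads in the shared stretch were counted is not known.

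Unstimulated B cells fell into a high and a low pair for Cdkn1a. Replicates 1 and 2 held 953 and 821 counts (35.8 and 31.7 CPM), and replicates 3 and 4 held 57 and 50 counts (2.33 and 2.25 CPM). The unstimulated library of experiment 2 read 26.2 CPM, near the higher pair. The rise on activation, at log2 2.44 with LPS (SE 0.80, edgeR adjusted p = 0.0257) and 2.33 with IL4CD40 (SE 0.86, adjusted p = 0.0396), varied in size with the pair it was set against. Against the higher pair alone it was 1.53 with LPS and 1.40 with IL4CD40, and against the lower pair alone 5.44 and 5.32. Without LPS replicate 3 or 4 the LPS call was lost (adjusted p = 0.0545 and 0.052), as was the IL4CD40 call without unstimulated replicate 3 or 4 or IL4CD40 replicate 2, 3 or 4 (adjusted p from 0.0512 to 0.0945). LPS+DSF exceeded unstimulated cells by log2 4.78 (SE 0.90, edgeR adjusted p = 0.00114), or 3.83 against the higher pair.

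Mdm2, at chr10:117688875-117710758, encodes the ubiquitin ligase that keeps p53 low, and it moved with DSF and not detectably with LPS. Levels were 78.1, 85.9, 80.9 and 88.4 CPM unstimulated, 94.3, 88.4, 79.2 and 86.5 CPM with LPS and 86.7, 82.1, 98.6 and 102 CPM with IL4CD40. These 3 groups overlapped, and the log2 fold changes against unstimulated cells were 0.07 (SE 0.07, edgeR adjusted p = 0.455) and 0.20 (SE 0.08, adjusted p = 0.06). The IL4CD40 difference passed the threshold without IL4CD40 replicate 2 (log2 0.25, adjusted p = 0.0354). DSF brought Mdm2 to 192, 196, 194 and 202 CPM in LPS, 2.28-fold higher (log2 1.19, SE 0.05, edgeR adjusted p = 2.20e-17). In IL4CD40 it reached 152, 156, 175 and 174 CPM, 1.71-fold higher (log2 0.77, SE 0.07, adjusted p = 6.25e-06). No library with DSF overlapped one without it. In experiment 2 Mdm2 was 317 against 84.9 CPM and 273 against 96.5 CPM.

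Trp53inp1, at chr4:11156431-11174379, encodes a stress protein that promotes p53 activity and autophagy, and it was lowered by activation and raised by DSF above its unstimulated level. It stood at 219.7, 236, 183 and 174 CPM in unstimulated cells, at 105, 103, 105 and 101 CPM with LPS, and at 47.5, 50.4, 85.5 and 118 CPM with IL4CD40. The falls were 1.96-fold (edgeR adjusted p = 4.14e-05) and 2.61-fold (adjusted p = 0.0018). With DSF all 8 stimulated libraries lay between 313 and 337 CPM, whatever the stimulus. The DSF change was log2 1.67 (SE 0.04, edgeR adjusted p = 5.36e-22) in LPS and log2 2.05 (SE 0.24, adjusted p = 2.06e-05) in IL4CD40. Against IL4CD40 replicates 1 and 2 alone the latter was 2.66, and against 3 and 4 alone 1.64. The IL4CD40 fall from the unstimulated level was likewise log2 -1.96 with the first pair and -0.93 with the second. Compared with unstimulated cells, the DSF groups were higher by 1.59-fold (adjusted p = 3.08e-04) and 1.60-fold (adjusted p = 3.58e-04), without overlap. The first of these missed the threshold with total-count scaling (log2 0.26, adjusted p = 0.0671). Experiment 2 gave the same order, with 203 CPM unstimulated, 70.4 and 58.4 CPM with stimulus and 436 and 484 CPM with DSF.

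Sesn2, at chr4:132492032-132510501, encodes a leucine-sensing inhibitor of mTORC1 and responded to both stimuli without DSF. It read 23.3, 25.1, 11.1 and 8.77 CPM unstimulated, again higher in replicates 1 and 2. LPS gave 37.7, 37.7, 34.5 and 37.1 CPM (log2 1.11, SE 0.31, edgeR adjusted p = 0.0123), and IL4CD40 gave 82.5, 84.2, 74.3 and 76.2 CPM (log2 2.27, SE 0.32, adjusted p = 2.54e-04). Against unstimulated replicates 1 and 2 alone these were 0.61 and 1.74, and against 3 and 4 alone 1.91 and 3.06. DSF brought the LPS level to 73.0, 74.7, 77.9 and 82.0 CPM (log2 1.08, SE 0.05, edgeR adjusted p = 1.51e-15). In IL4CD40 it added little, at 89.0, 97.9, 93.7 and 103 CPM (log2 0.21, SE 0.06, adjusted p = 0.0135). The groups did not overlap, but the call was lost with total-count scaling (log2 0.06, adjusted p = 0.394), with all 20 libraries in one fit (log2 0.27, adjusted p = 0.269) and against IL4CD40 replicates 1 and 2 alone (log2 0.13, adjusted p = 0.0821). In experiment 2 Sesn2 was 217 against 58.1 CPM in LPS and 178 against 112 CPM in IL4CD40. Gm12981 overlaps Sesn2 on the same strand, and how reads in their shared stretch were counted is not known either.

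Gdf15, at chr8:70629393-70632456, encodes a secreted cytokine of cell stress and rose with DSF at few counts. It held 13, 20, 11 and 15 counts in LPS and 56, 58, 74 and 65 counts in LPS+DSF, a 5.19-fold rise (log2 2.37, SE 0.23, edgeR adjusted p = 1.87e-09). In IL4CD40 it held 8, 9, 7 and 8 counts, and with DSF 12, 20, 41 and 44 counts (log2 1.82, SE 0.40, adjusted p = 0.00212). All DSF libraries lay above those without DSF in CPM. Unstimulated replicates held 36, 24, 2 and 0 counts, and the LPS difference was log2 -0.64 against replicates 1 and 2 and 3.95 against 3 and 4. Experiment 2 gave 73 against 17 counts in LPS and 49 against 9 counts in IL4CD40. Macrophages are a known source of Gdf15. The 9 macrophage and monocyte markers, all detected, summed to 144 to 165 CPM in LPS and 141 to 154 CPM in LPS+DSF, and to 171 to 198 CPM in IL4CD40 and 217 to 282 CPM in IL4CD40+DSF. In experiment 2 they summed to 29.2 CPM in LPS and 42.2 CPM in LPS+DSF, and to 36.4 CPM in IL4CD40 and 47.5 CPM in IL4CD40+DSF, and their part in the Gdf15 values was not tested.

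The other 3 detected targets went the other way. Ccng1, at chr11:40748552-40755311, encodes cyclin G1, which recruits a phosphatase to Mdm2. It read 77.2, 71.4, 80.9 and 76.3 CPM in LPS and 44.9, 51.0, 48.5 and 49.7 CPM in LPS+DSF, 1.56-fold lower (log2 -0.64, SE 0.05, edgeR adjusted p = 3.74e-11). In IL4CD40 it read 116, 123, 118 and 127 CPM and with DSF 95.7, 75.4, 80.8 and 73.5 CPM (log2 -0.64, SE 0.08, adjusted p = 3.66e-05). The DSF libraries lay below the others in both stimuli, and the fall had nearly one size in both, with a difference of log2 0.01 (SE 0.10, edgeR adjusted p = 0.975). In experiment 2 the fall was deeper, to 18.4 from 94.7 CPM in LPS and to 18.4 from 129 CPM in IL4CD40, 5.13-fold and 6.95-fold lower. The stimuli by themselves had moved Ccng1 apart, from 105, 109.5, 84.7 and 83.0 CPM unstimulated, by -0.32 with LPS (edgeR adjusted p = 0.0192) and by 0.40 with IL4CD40 (adjusted p = 0.00689) on the log2 scale. Against unstimulated replicates 3 and 4 alone the LPS change was -0.10 (adjusted p = 0.0981). It also lost the call without unstimulated replicate 1 or 2 or LPS replicate 1 or 2 (adjusted p from 0.0504 to 0.0663).

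Zmat3, at chr3:32334792-32366014, encodes a p53-induced RNA-binding protein. It read 11.0, 12.9, 11.0 and 10.5 CPM in unstimulated cells and 6.49, 5.86, 6.15 and 6.70 CPM with LPS, 1.80-fold lower (edgeR adjusted p = 1.42e-04). With IL4CD40 it read 12.1, 12.8, 11.3 and 9.91 CPM, a change of log2 0.07 (SE 0.13, adjusted p = 0.64). DSF lowered it to 7.56, 6.82, 5.52 and 6.69 CPM in IL4CD40 (log2 -0.85, SE 0.13, edgeR adjusted p = 1.24e-04). In LPS it was 4.85, 5.08, 5.21 and 5.32 CPM, below every LPS library by a small margin (log2 -0.28, SE 0.13, adjusted p = 0.048), and this call was lost without LPS replicate 1 or 4 or any 1 LPS+DSF library (adjusted p from 0.0552 to 0.0823) and in DESeq2 (adjusted p = 0.109). Experiment 2 gave 3.66 against 10.2 CPM and 5.10 against 16.1 CPM.

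Phlda3, at chr1:135766119-135769136, encodes an inhibitor of AKT and was near the detection limit. It held 32, 48, 33 and 39 counts in IL4CD40 and 21, 2, 7 and 3 counts with DSF, a 4.61-fold fall (log2 -2.20, SE 0.50, edgeR adjusted p = 0.00254). It passed edgeR's count filter through the libraries without DSF, and the fall rests on few counts. In LPS it held 6, 8, 15 and 17 counts and with DSF 3, 4, 4 and 0 counts, and edgeR's count filter left it out there. DESeq2, and edgeR without the filter, called it lowered. Unstimulated libraries held 37, 24, 4 and 3 counts, and the IL4CD40 difference from them (log2 1.49, SE 0.61) missed the threshold at an edgeR adjusted p of 0.0584, which became 0.013 without unstimulated replicate 1. Against unstimulated replicates 3 and 4 alone it was log2 3.61, and against 1 and 2 alone 0.66. In experiment 2 it held 1 against 9 counts in LPS, a log2 ratio of -1.90 (95% counting interval from -8.52 to -0.21), and 2 against 23 counts in IL4CD40, at -2.48 (from -6.27 to -1.13). Eda2r, at chrX:97333840-97377216, encodes a receptor of the TNF receptor family and was at 0 counts in every library except 2 counts in LPS replicate 3, so the count filter of edgeR left it out of every comparison.

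**Figure D2:**
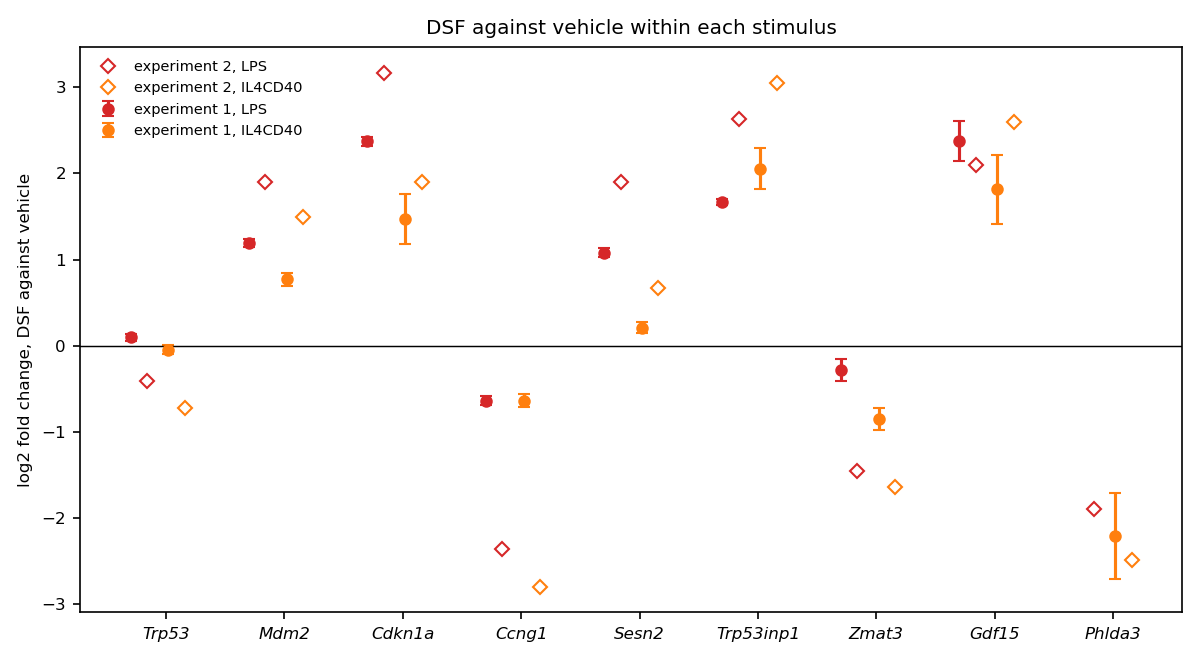
Log2 fold change of DSF against vehicle (vertical axis) for 9 genes within LPS (red) and IL4CD40 (orange). Filled dots with SE bars are edgeR estimates from 4 against 4 libraries of experiment 1, and open diamonds are log2 ratios of single libraries in experiment 2. Cdkn1a, Mdm2, Sesn2, Trp53inp1 and Gdf15 lie above 0 and Ccng1, Zmat3 and Phlda3 below 0 in both experiments, while Trp53 lies within 0.10 of 0 in experiment 1 and below 0 in experiment 2. Phlda3 in LPS has no dot for experiment 1 because the count filter of edgeR left it out there.

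The DSF effect differed between the stimuli for some of the genes. Tested as an interaction over 16 libraries (edgeR), 3 of 9 tested members had a smaller or more negative effect in IL4CD40 than in LPS and 0 a larger one, beside 7.92% and 6.96% of 15130 genes. At an unadjusted p under 0.05 the numbers were 5 and 0, and DESeq2 also called 3 and 0. Sesn2 differed by log2 -0.87 (SE 0.08, adjusted p = 7.44e-07), Zmat3 by -0.57 (SE 0.16, adjusted p = 0.0202) and Mdm2 by -0.41 (SE 0.09, adjusted p = 0.00418). With IL4CD40 replicates 3 and 4 alone the Zmat3 call was lost (-0.43, adjusted p = 0.0885). Sesn2 had the higher level before DSF in IL4CD40, at 79.3 ± 4.79 CPM (SD, n = 4) against 36.8 CPM in LPS (SD 1.5, n = 4), and with DSF the groups stood at 95.8 ± 5.79 and 76.9 ± 3.98 CPM. For Cdkn1a the difference was -0.89 (SE 0.31, edgeR adjusted p = 0.0565). It passed the threshold without IL4CD40 replicate 1 (-1.08, adjusted p = 0.00659) or 2 (-1.08, adjusted p = 0.00917). Against IL4CD40 replicates 1 and 2 alone it was -0.12, and against 3 and 4 alone -1.39. Trp53inp1 differed by 0.39 (SE 0.25, adjusted p = 0.311), which became 0.69 (adjusted p = 0.00434) without IL4CD40 replicate 4. With all 20 libraries in one fit none of the 9 passed, and the adjusted p of Sesn2 was 0.117.

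Across the 5 groups the genes fell into different orders. Mean levels of Cdkn1a ran from LPS+DSF (499 ± 21.2 CPM, SD, n = 4) over IL4CD40+DSF (253 ± 33.9 CPM), LPS (97.6 ± 8.65 CPM) and IL4CD40 (88.1 ± 45.2 CPM) to unstimulated cells (18.0 ± 18.2 CPM), and only LPS and IL4CD40 overlapped among neighbours. Mdm2 ran in the same order apart from IL4CD40 standing before LPS, and its 3 groups without DSF overlapped. For Sesn2 the order was IL4CD40+DSF, IL4CD40, LPS+DSF, LPS and unstimulated, where IL4CD40 and LPS+DSF overlapped. Ccng1 and Zmat3 shared the order IL4CD40, unstimulated, IL4CD40+DSF, LPS and LPS+DSF. Per gene length, Cdkn1a was the most abundant of the 10 in LPS+DSF, at 138 ± 4.91 FPKM, whereas Trp53 led in unstimulated cells at 38.7 ± 2.74 FPKM. Gdf15, Phlda3 and Zmat3 stayed under 3 FPKM in every library.

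**Figure D3:**
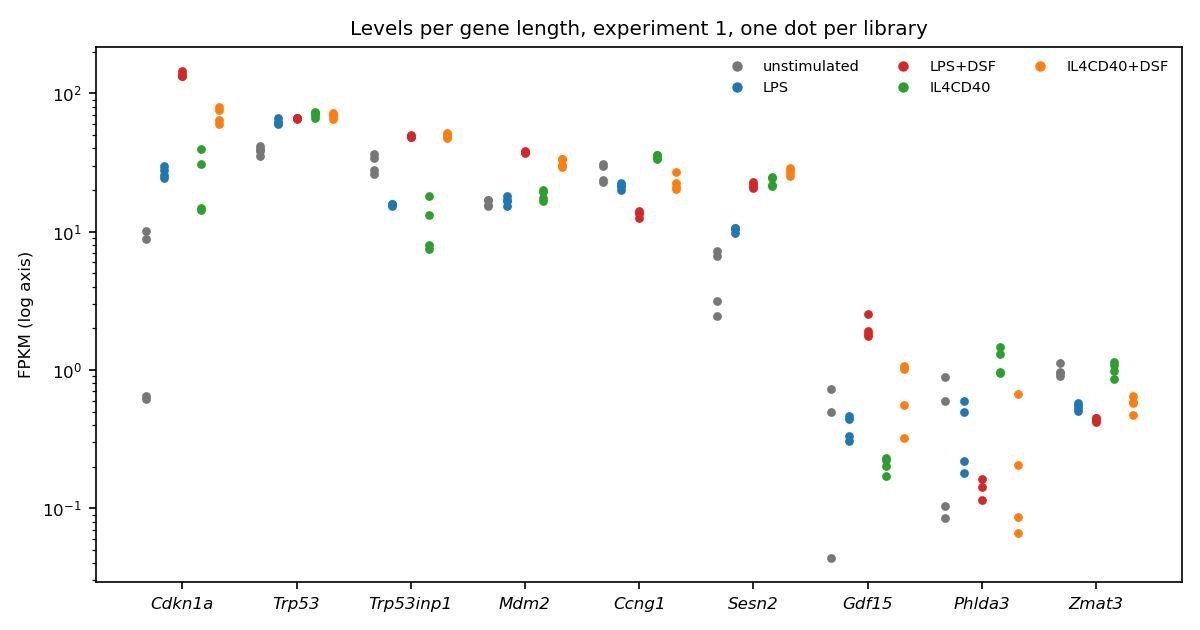
Deposited FPKM (vertical axis, log scale) of 9 genes in the 20 libraries of experiment 1, one dot per library and one colour per group; values of 0 (Gdf15 in unstimulated replicate 4, Phlda3 in LPS+DSF replicate 4) are not drawn. Cdkn1a spans from 0.617 FPKM in an unstimulated library to 145 FPKM in LPS+DSF, while Trp53 stays between 35.1 and 72.8 FPKM.

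The genes whose log2 CPM followed the members most closely over the 20 libraries, among 14426 genes, were Zhx2 (Pearson r = 0.986), Pgd (0.986) and Spag4 (0.985) for Cdkn1a. Suco (0.991), Oser1 (0.989) and Rbm39 (0.984) lay closest to Mdm2. For Sesn2 they were the tRNA synthetase genes Aars (0.995) and Cars (0.983), followed by Rbpj (0.982). None of these 9 belongs to the lists of p53 targets used here, and the points of each correlation share the 5 groups of libraries.

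A longer list of other p53 targets moved in both directions. Of 42 genes, 37 were tested in LPS, and DSF raised 15 and lowered 16, with a median log2 fold change of 0.12. In IL4CD40 it raised 16 and lowered 13 of 36 (median 0.18). Over all genes tested 35.1% were raised and 36% lowered in LPS, and 30.1% and 31.6% in IL4CD40. Scaled to total counts, the LPS median was -0.09, with 12 raised and 18 lowered, and the IL4CD40 median 0.03, with 13 raised and 14 lowered. All genes then gave 3473 raised and 6680 lowered in LPS (median -0.21), and 3262 and 5832 in IL4CD40 (median -0.16). Among those raised, the polo-like kinase gene Plk2 led with log2 2.62 in LPS (197 against 32.5 CPM, edgeR adjusted p = 1.86e-23) and 2.48 in IL4CD40 (75.8 against 13.2 CPM, adjusted p = 4.61e-05), and Plk3 rose by 1.84 in LPS. Of the genes known from cell death, some rose and some fell. Pmaip1 (Noxa) changed by log2 1.67 and 1.30, Bax by 1.01 and 0.54, the death receptor gene Fas by 0.93 and 0.90, and Bbc3 (Puma) by 0.31 and 0.36, all past the threshold in LPS and IL4CD40 respectively. Named after their values were seen, Apaf1 (log2 0.70 and 0.92), Casp1 (0.61 and 0.91) and Tnfrsf10b (1.63 and 0.84) were also raised, while Aen (-0.40 and -0.87), Ei24 (-0.86 and -0.65) and Pidd1 (-0.82 and -0.67) were lowered in both. The antiproliferative gene Btg2 rose by 0.71 in LPS and 1.60 in IL4CD40. Rrm2b, the p53-induced ribonucleotide reductase subunit, had a log2 fold change of 0.13 in LPS (adjusted p = 0.0835), turning to -0.07 with total counts, and rose by 0.24 in IL4CD40 (adjusted p = 0.0215). Lowered members included Zfp365 (log2 -1.59) and Dcxr (-0.90) in LPS, and Psrc1 (-0.95) and Tigar (-0.88), which encodes a fructose-2,6-bisphosphatase, in IL4CD40.

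**Figure D4:**
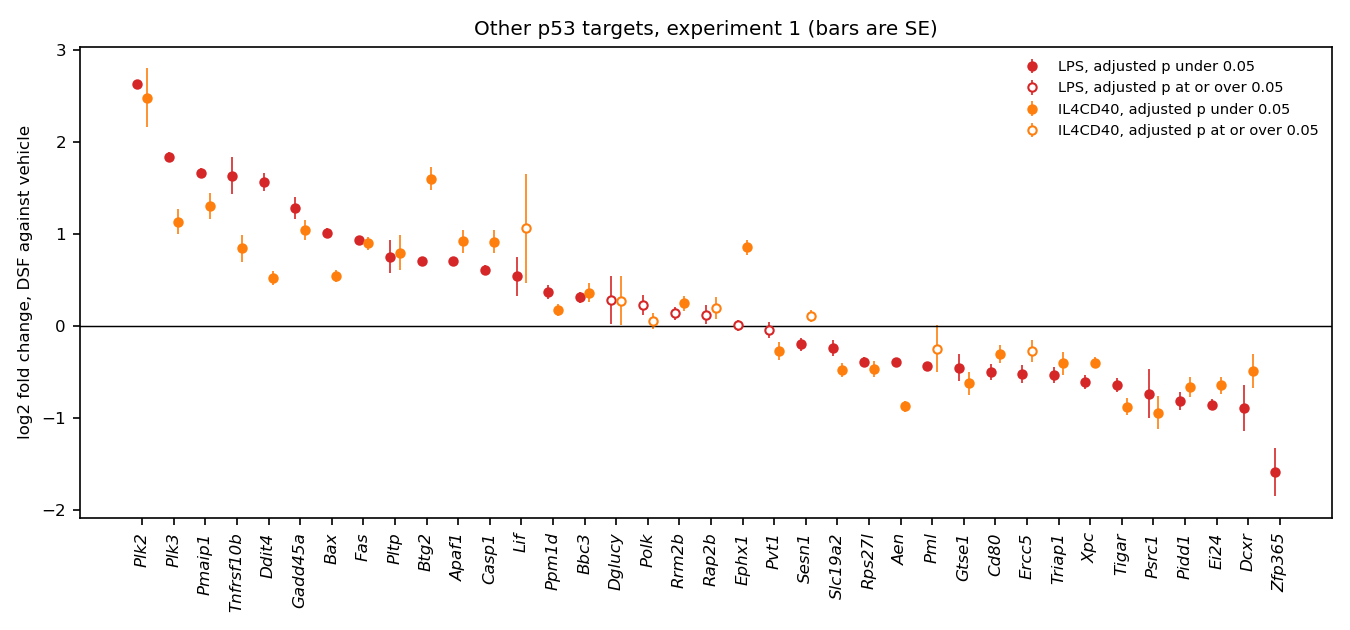
Log2 fold change of DSF against vehicle (vertical axis) with SE bars for other p53 targets tested in experiment 1, ordered by their value in LPS (red), beside IL4CD40 (orange). Filled dots have an edgeR adjusted p under 0.05 over all genes. The values run from 2.62 (Plk2) to -1.59 (Zfp365) in LPS, with 15 genes raised and 16 lowered.

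Genes that act on p53 moved both ways. Of 20 tested regulators, DSF raised 11 and lowered 6 in LPS (7 and 9 with total counts) and raised 9 and lowered 9 in IL4CD40 (6 and 9). The shares over all genes tested were 35.1% and 36% in LPS and 30.1% and 31.6% in IL4CD40. With total counts 3473 of all genes were raised and 6680 lowered in LPS, and 3262 and 5832 in IL4CD40. Atm and Atr, which encode kinases of the DNA damage response, fell in both, Atm by log2 -1.17 and -1.12 and Atr by -1.02 and -1.23, while Sirt1, which encodes a p53 deacetylase, rose by 1.23 and 1.21. The checkpoint kinase genes Chek1 and Chek2, named after their values were seen, rose in LPS by 0.76 and 0.44. In IL4CD40 Chek2 rose by 0.58, and Chek1 had 0.04 (edgeR adjusted p = 0.77), turning to -0.11 with total counts. Mdm4, the Mdm2 partner, had a log2 fold change of 0.06 in LPS (edgeR adjusted p = 0.309), turning to -0.15 with total counts, and fell by 0.19 in IL4CD40 (adjusted p = 0.00857). In experiment 2 Atm and Atr were 3.52-fold and 3.55-fold lower with DSF in LPS, and Sirt1 was 4.52-fold higher.

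The list tied to nucleolar stress held 20 genes, all tested. Activation had raised 15 of them and lowered 1 with LPS, beside 29.6% and 33.3% of all genes tested. With IL4CD40 it had raised 15 and lowered 1, beside 30.4% and 32.1%. DSF raised 6 and lowered 11 in LPS (median log2 fold change -0.18) and raised 5 and lowered 12 in IL4CD40 (median -0.39). With TMM, over all genes tested, 35.1% were raised and 36% lowered in LPS, and 30.1% and 31.6% in IL4CD40. With total counts the list gave 3 and 14 in LPS (median -0.39) and 3 and 15 in IL4CD40 (median -0.54). All genes then gave 3473 raised and 6680 lowered in LPS (median -0.21), and 3262 and 5832 in IL4CD40 (median -0.16). The ribosomal protein genes whose products bind Mdm2 rose slightly, Rpl5 by log2 0.30 and 0.32, Rpl11 by 0.20 and 0.24 and Rpl23 by 0.40 and 0.55, although Rpl11 in LPS stood at -0.0088 when scaled to total counts. Polr1b, a subunit of RNA polymerase I, fell by log2 -0.87 and -1.13, and in experiment 2 it was 7.43-fold and 6.59-fold lower. Ubtf, the polymerase I factor, fell by -0.57 in LPS, and Npm1, encoding nucleophosmin, passed in neither stimulus (0.06, adjusted p = 0.199 and -0.20, adjusted p = 0.0637), the former turning to -0.15 (adjusted p = 0.00161) with total counts. Hexim1, encoding an inhibitor of the elongation factor P-TEFb, was raised by 0.68 and 0.57. Against unstimulated cells 16 of the 20 were raised and 0 lowered in LPS+DSF (median 0.68), beside 34.3% and 37.3% of genes. In IL4CD40+DSF 17 were raised and 0 lowered (median 0.79), beside 33.4% and 35.3%. With total counts these numbers were 8 and 1 (median 0.26) and 13 and 0 (median 0.48). All genes then gave 3151 and 7453, and 3117 and 6760. All of these are transcript levels, and ribosomal RNA, nucleotide pools and p53 protein were not measured here.

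Genes of the ATF4 and integrated stress response, which share Sesn2 and Gdf15 as known targets, were raised more often than lowered by DSF in LPS, at 13 against 2 of 18 tested (median log2 fold change 0.60). In IL4CD40 the counts were 11 raised and 6 lowered of 18 (median 0.36). The lowered number in IL4CD40 fell to 2 in DESeq2 and to 3 with its size factors in edgeR, beside 11 raised in each, and total counts gave 9 raised and 6 lowered. In LPS total counts gave 12 and 4. The shares over all genes with TMM were again 35.1% and 36% in LPS and 30.1% and 31.6% in IL4CD40. Total counts gave 3473 raised and 6680 lowered over all genes in LPS, and 3262 and 5832 in IL4CD40. Atf4 rose by log2 0.56 and 0.39, Ddit3 by 2.01 and 1.24, and Atf3 by 2.86 and 2.47. Atf3 went from 53.2 to 383 CPM in LPS, and in experiment 2 from 43.8 to 908 CPM. Activation without DSF had already raised 11 of 18 with LPS and 13 of 18 with IL4CD40 and lowered 0 in both. Over all genes tested, activation raised 29.6% and lowered 33.3% with LPS, and raised 30.4% and lowered 32.1% with IL4CD40.

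Against unstimulated cells, before DSF is considered, LPS raised 3 of 9 tested members (Trp53, Cdkn1a and Sesn2) and lowered 3 (Ccng1, Trp53inp1 and Zmat3), beside 29.6% and 33.3% of 14477 genes. IL4CD40 raised 4 of 8 (Trp53, Cdkn1a, Ccng1 and Sesn2) and lowered Trp53inp1, beside 30.4% and 32.1% of 14433 genes. Without overlap between libraries, the same 3 members were higher and the same 3 lower with LPS, beside 29.5% and 31.4% of genes. With IL4CD40 these were the 4 raised members and Phlda3 against Trp53inp1, beside 27.8% and 32.3%. LPS+DSF cells stood above unstimulated cells in 6 of 8 tested members and below in 2 (34.3% and 37.3% of 14663 genes), and IL4CD40+DSF cells above in 5 of 8 and below in 1, Zmat3 (33.4% and 35.3% of 14678 genes). Every LPS+DSF library lay above every unstimulated one for the 6 members and below for the 2 (33.7% and 34.8% of genes), and the same held in IL4CD40+DSF for the 5 and for Zmat3 (32.3% and 33%). These 4 comparisons share the same unstimulated libraries. Markers of other cells moved with activation. The macrophage and monocyte markers summed to 549.5 to 653 CPM in unstimulated cells, above the stimulated groups. The 5 plasma cell markers summed to 587 to 813 CPM, against 1821 to 1849 CPM with LPS and 1379.5 to 1460 CPM with IL4CD40. Of those 5, however, LPS raised 1 and lowered 3 (median log2 fold change -0.57), and IL4CD40 raised 2 and lowered 2 (median 1.11). In experiment 2 the macrophage markers were at 40.9 CPM unstimulated, 29.2 CPM with LPS and 36.4 CPM with IL4CD40. Their part in the members' values was not tested. Without IL4CD40+DSF replicate 1, Ccng1 also fell below the unstimulated level (log2 -0.33, adjusted p = 0.0343).

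In experiment 2, LPS left 1 member at least 2-fold higher (Cdkn1a) and 2 lower (Trp53inp1 and Phlda3) than unstimulated cells, beside 8.62% and 9.88% of 14275 genes. With IL4CD40, 3 were higher (Trp53, Cdkn1a and Sesn2) and 2 lower (Trp53inp1 and Gdf15), beside 10.7% and 13.7%.

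With ibrutinib, in 1 library per stimulus, none of the 9 members with a ratio reached 2-fold in either direction, beside 2.81% and 2.47% of 14275 genes in LPS and 2.23% and 1.69% in IL4CD40. Cdkn1a read 47.0 against 52.7 CPM in LPS and 89.6 against 103 CPM in IL4CD40, and Mdm2 read 92.3 against 84.9 CPM and 109 against 96.5 CPM. Trp53inp1 was 1.36-fold and 1.41-fold higher. Phlda3 came nearest to 2-fold, at 66 against 23 counts in IL4CD40 (log2 ratio 0.97, 95% counting interval from 0.32 to 1.77). The same 2-fold rule applied to DSF in experiment 2 found 5 members higher and 3 lower in LPS, beside 20.3% and 19.5% of genes, and 4 higher and 3 lower in IL4CD40, beside 21.9% and 20.3%. Ibrutinib and DSF were each given at 1 μM, and 1 library per group leaves their difference without a replicate check.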

How the data were processed

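RNA from splenic B cells was sequenced in 27 libraries. Reads were trimmed with Fastp, mapped to mm10 with HISAT2 v2.0.5 and assigned to genes with featureCounts v1.5.0-p3 by the authors, who deposited raw counts and, beside them, FPKM made from the counts and gene lengths. The annotation release and strand setting are not given in the sources used here.

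Experiment 1 was analysed in edgeR 4.0.16 (R 4.3.3) by the quasi-likelihood test, after filterByExpr and TMM scaling, with only the compared groups in a fit. P-values were adjusted by Benjamini-Hochberg over all genes tested, with 0.05 as threshold, and DSF effects were compared between stimuli as an interaction. Libraries of experiment 2 were set against each other as log2 ratios (TMM, 2 counts added as prior), where the mean count reached 10, with a 2-fold limit. Their 95% intervals cover counting error only. On simulated data for DSF in LPS, edgeR found 95 of 100 planted genes at a log2 change of 1 and 100 of 100 at 2, with 15 false calls of 13968 genes. For the interaction it found 75 of 100 and 97 of 100. The simulation planted 200 changes, rises and falls in equal number, among otherwise unchanged genes, so it cannot test the scaling.

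The 10 members and the 4 lists of other genes were chosen with earlier results of these data known. All 10 members are named. Of each other list, at most 2 genes per direction and comparison are named by size of change among those past the threshold, without overlap and with at least 10 counts per library of the higher group, beside a few named whatever their values. The alternatives were DESeq2 1.42.0, its size factors in edgeR, total counts, other count filters, 1 fit of all 20 libraries, a replicate block and leaving out each library. Using only 1 pair of the unstimulated or IL4CD40 libraries, and the scalings for the lists, were added after seeing the data.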

Additional observations from a re-analysis of the deposited data

Results flagged for a closer look

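The DSF effect differed between the stimuli for 3 of the members by the interaction term in edgeR, which compares the change in IL4CD40 with the change in LPS. Sesn2 differed by log2 -0.87 (SE 0.08, adjusted p = 7.44e-07), with a rise of log2 1.08 in LPS and 0.21 in IL4CD40. Mdm2 differed by -0.41 (SE 0.09, adjusted p = 0.00418), with a rise of 1.19 in LPS and 0.77 in IL4CD40. Zmat3 differed by -0.57 (SE 0.16, adjusted p = 0.0202), with a fall of -0.28 in LPS and -0.85 in IL4CD40. In experiment 2 the log2 ratios with DSF were 1.90 and 0.67 for Sesn2, 1.90 and 1.5 for Mdm2, and -1.45 and -1.64 for Zmat3, without a test. None of the 3 passed with all 20 libraries in one fit, where the adjusted p-values were 0.117, 0.0582 and 0.0662.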

How the results depend on the processing

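Of the member counts under the alternatives, 268 kept to within 1.5 times the value given and 23 did not. Of the single-member changes, 974 kept direction and side of the threshold, 47 lost the call, 23 gained one and 22 reversed. The cause was not tested. Scaled to total counts, the median gene moved to log2 -0.27 for LPS and -0.19 for IL4CD40 against unstimulated cells, and to -0.43 and -0.31 with DSF added. With this scaling IL4CD40 raised 2 members, IL4CD40+DSF lowered 2, and in experiment 2 LPS left 0 higher by 2-fold. Reversed with it were Mdm2 with LPS (log2 -0.16, adjusted p = 0.0841), Zmat3 with IL4CD40 (-0.081) and Trp53 with DSF in LPS (-0.11).

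The 20-library fit lowered 2 members in IL4CD40+DSF against unstimulated cells and 0 in the interaction, and turned Trp53 with DSF in IL4CD40 to 0.015. With at least 10 counts in every sample, DSF lowered 1 member in LPS and the Ccng1 interaction was -0.0066. With all genes of any count, the interaction raised 1. In experiment 2 a mean of at least 50 counts left 1 member lower with LPS and 1 with IL4CD40, and a prior count of 0.5 put 1, Phlda3, higher with ibrutinib in IL4CD40.

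Leaving out 1 library at a time, DSF lowered 1 to 2 members in LPS, IL4CD40+DSF lowered 1 to 2 against unstimulated cells, and the interaction raised 0 to 1. The LPS change of Phlda3 ran from -0.50 to 0.50 and that of Gdf15 from -0.11 to 1.08, and the Ccng1 interaction from -0.091 to 0.057.

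Chosen after seeing the data, only 1 pair of a group was kept. Against unstimulated replicates 3 and 4, LPS raised 5 members, with Phlda3 at 1.94. Against replicates 1 and 2, IL4CD40 lowered 2 and IL4CD40+DSF 3, Gdf15 with LPS was -0.64 and Zmat3 with IL4CD40 -0.030. With IL4CD40 replicates 1 and 2 the interaction raised 1, Trp53inp1, and with 3 and 4 its difference was -0.026 and Zmat3 with IL4CD40 was -0.035.

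Replicate numbers mostly did not pair the libraries: same-number deviations correlated between -0.056 and 0.169, and 7 of 48 best matches were with the own number. Of these 7, 4 were among the 8 libraries of DSF in IL4CD40, where replicates 1 and 4 correlated at 0.169 and 0.147. A block for the number left DSF in IL4CD40 at 5 members raised and 3 lowered, over all genes 4155 and 4310. With the number as a block, DSF in LPS raised 6 members and lowered 1, over all genes 4949 and 5098. The calls of Ccng1 with LPS (adjusted p = 0.052), Cdkn1a with IL4CD40 (0.0884) and Zmat3 with DSF in LPS (0.0666) were lost, that of the Cdkn1a interaction was gained (0.032), and Phlda3 with LPS was 0.056. Few counts limit Phlda3, Gdf15 and Zmat3, and Eda2r held 2 counts in all.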
